A study of Homo sapiens with 2 samples.

Results

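The 5p arms of miR-6715 to miR-6895 were examined in exosomes, the small vesicles that cells release, from FaDu cells, a human line of hypopharyngeal squamous cell carcinoma. The rule that defines the members uses names and no measured value. They were all human entries of the array from miR-6715 to miR-6895 whose name ends in -5p, which gave 176 members of 2549 miRNAs. RNA from exosomes of FaDu cells that received the negative control construct (oe-NC) and of FaDu cells that received the HOTTIP overexpression construct (oe-HOTTIP) was hybridized to one-colour Agilent miRNA arrays, with 1 array per group and 200 ng of RNA on each. HOTTIP is a long noncoding RNA. The labels describe both constructs as plasmid lentivirus, whereas the study's methods describe pcDNA3.1 plasmids and a lipid reagent, and the methods describe the reagent that isolates exosomes for macrophages.

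With 1 array per group there was no replicate check, so no test was run and no p-value is given. The SDs below were taken over the spots of a miRNA on 1 array and cover technical error only. Title and treatment of each array named one group and its free-text description named the other, and the authors' normalized table followed the descriptions, as shown at the end. The titles were followed. "The oe-NC array" and "the oe-HOTTIP array" are therefore names taken from the titles, and all directions would be reversed if the descriptions were correct. The study took its candidates, miR-6787-5p among them, from miRNAs it described as lower in oe-HOTTIP exosomes, which is opposite to the direction printed here for miR-6787-5p. HOTTIP itself has no probe here, so the overexpression could not be checked. Equal masses of RNA were labelled, so more copies of a miRNA per exosome and more exosomes that carry it cannot be told apart.

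A microRNA is cut from a hairpin transcript, and the arm nearer the 5′ end gives the 5p miRNA, while the opposite strand gives the 3p miRNA. In most hairpins the nuclear enzyme Drosha makes the first cut. In a mirtron the hairpin lies at the edge of a short intron, and splicing replaces Drosha, so that the 3′ end of the hairpin is the AG with which introns end and the 3p arm carries the pyrimidine tract in front of it. The 5p arm pairs with that tract and is rich in purines. Bases 2 to 8 of a mature miRNA, the seed, pair with target mRNAs.

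RefSeq held a mature sequence for 150 of the 176 members on GRCh38.p14. The sequences below are those of members that differed by at least 2-fold, 5′ to 3′, with the seed in capitals. Among members with a sequence they are the 3 decreases and the 5 largest increases of those detected on both arrays, the 3 highest bounds upward and the 3 called bounds downward.
miR-6829-5p: uGGGCUGCugagaaggggca
miR-6754-5p: cCAGGGAGgcugguuuggagga
miR-6778-5p: aGUGGGAGgacaggaggcaggu
miR-6775-5p: uCGGGGCAugggggagggaggcugg
miR-6867-5p: uGUGUGUGuagaggaagaaggga
miR-6740-5p: aGUUUGGGauggagagaggaga
miR-6831-5p: uAGGUAGAgugugaggaggagguc
miR-6785-5p: uGGGAGGGcguggaugauggug
miR-6809-5p: uGGCAAGGaaagaagaggauca
miR-6739-5p: uGGGAAAGagaaagaacaagua
miR-6765-5p: gUGAGGCGgggccaggagggugugu
miR-6776-5p: uCUGGGUGcaguggggguu
miR-6721-5p: uGGGCAGGggcuuauuguaggag
miR-6795-5p: uGGGGGGAcaggaugagaggcugu

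The first 3 of these were lower on the oe-HOTTIP array, the next 8 were higher, and the last 3 were lower. Runs of guanine stood in sequences of either direction. miR-6829-5p lay at chr3:195882371-195882390 on the minus strand, within TNK2, which encodes a nonreceptor tyrosine kinase. miR-6754-5p lay at chr11:71473508-71473529 on the plus strand within NADSYN1, an NAD synthetase, and miR-6775-5p at chr16:87834631-87834655 on the minus strand within SLC7A5, a transporter of large neutral amino acids. miR-6867-5p lay at chr17:40193602-40193624 on the plus strand within RAPGEFL1, and miR-6740-5p at chr1:202003129-202003150 on the plus strand within RNPEP, an aminopeptidase. miR-6765-5p and miR-6795-5p lay within genes of the Notch pathway, the ligand JAG2 (chr14:105150840-105150864, minus strand) and the receptor NOTCH3 (chr19:15179322-15179345, minus strand). Of the 150 members with a sequence, 126 (84.0%) lay within a protein-coding gene on the same strand. Exons and introns of these genes were not analysed here.

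Most member hairpins ended in AG, as a mirtron does, but whether they end at an intron's edge was not tested. Of 149 member hairpins with a sequence, 135 (90.6%) ended in AG, against 263 (16.8%) of 1562 hairpins in RefSeq, which include them. A start with GU, the other end of an intron, was present in 16 (10.7%) against 8.32% of all hairpins. Both ends were present in 12 (8.05%) against 2.3% of all hairpins. The hairpins of miR-6829 and miR-6752 are shown because they carry the member with the greatest decrease and the hairpin whose arms went in opposite directions. Capitals mark both mature arms.
miR-6829 hairpin: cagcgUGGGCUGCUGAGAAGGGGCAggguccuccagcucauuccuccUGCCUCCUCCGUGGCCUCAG
miR-6752 hairpin: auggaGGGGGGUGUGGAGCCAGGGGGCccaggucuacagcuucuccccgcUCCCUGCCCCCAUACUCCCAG

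In both, the purine-rich 5p arm begins a few bases after the start and the pyrimidine-rich 3p arm runs to the final AG. The miR-6829 hairpin spans chr3:195882329-195882395 on the minus strand and the miR-6752 hairpin chr11:67490245-67490315 on the plus strand.

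More members were detected on the oe-HOTTIP array than on the oe-NC array. By the scanner software's detection flag, 53 members (30.1%) were detected on the oe-HOTTIP array and 35 (19.9%) on the oe-NC array. Of all 2549 miRNAs, 390 (15.3%) and 328 (12.9%) were detected. Both arrays detected 30 members, the oe-HOTTIP array alone 23, the oe-NC array alone 5, and neither array 118. Most of these signals were dim. The negative control spots averaged 3.87 ± 2.37 (SD over 976 spots) on the oe-NC array and 3.45 ± 2.21 (975 spots) on the oe-HOTTIP array. Of the 30 members detected on both arrays, 25 lay above the negative control mean plus 2 SD on both, and 3 exceeded an intensity of 100 on both. These 3 were miR-6829-5p, miR-6821-5p and miR-6879-5p.

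**Figure D1:**
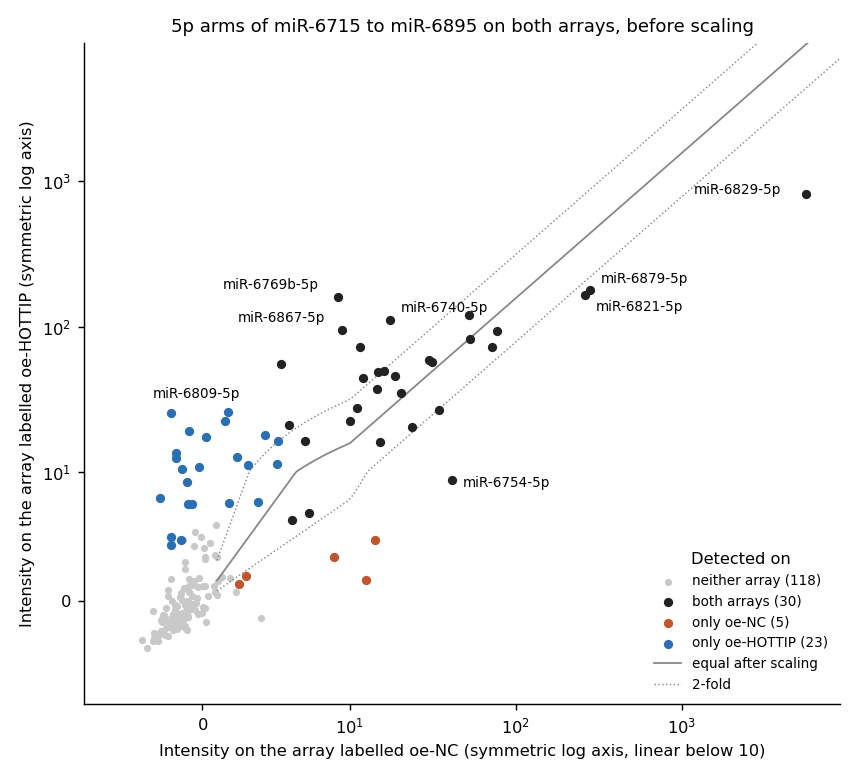
Background-subtracted intensity of the 176 members on the oe-NC array (x axis) and the oe-HOTTIP array (y axis), before scaling, on symmetric log axes that are linear below 10. Each point is 1 member coloured by the arrays that detected it. The solid line marks equal values after scaling and the dotted lines 2-fold. Of the 23 members detected only on the oe-HOTTIP array, 13 had oe-NC signals below 0. Others lay near the negative control mean, such as miR-6752-5p at 5.14.

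For comparison, the intensities were scaled to the 90th percentile of the 261 miRNAs that both arrays detected, 279.9 for oe-NC and 439 for oe-HOTTIP. The threshold was the 2-fold difference of the study's methods. Before scaling, the median log2 difference of these 261 miRNAs was 0.67 and that of the members among them 1.07. After scaling, the 30 members had a median log2 difference of 0.42, oe-HOTTIP minus oe-NC, with quartiles of -0.64 and 1.03. The median of all 261 was 0.02. In all, 18 of the 30 members were above 0 and 12 below. The median size of the difference was 0.81 for the members, whose median spread over spots was 0.42, and 0.70 for all 261.

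The members with 2-fold differences went both ways. Of the 30 members, 8 (26.7%) were at least 2-fold higher on the oe-HOTTIP array and 5 (16.7%) at least 2-fold lower, while 17 lay within 2-fold. Over all 261 miRNAs these shares were 18.0% and 21.1%. For 23 of the 30, the difference was larger than its spread over spots, which combines the relative SDs of both arrays. These included all 13. The 13 were chosen for large differences, so this adds no support to their calls.

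miR-6829-5p had the greatest decrease and was among the members above 100. Its intensity was 5579 ± 564 (SD, 19 spots) on the oe-NC array and 814 ± 78.8 (20 spots) on the oe-HOTTIP array. After scaling it was 10.8-fold lower, with a log2 difference of -3.43 (spread 0.20). Its 2 probes gave -3.48 and -3.37, and over all alternatives from the scanner output and the exchanged table it ranged from -3.60 to -2.29. It was also lower before any scaling.

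miR-6754-5p gave 41.4 ± 13.5 (19 spots) on the oe-NC array and 9.40 ± 1.72 (20 spots) on the oe-HOTTIP array, 6.91-fold lower after scaling (log2 difference -2.79, spread 0.54). miR-6821-5p gave 261 ± 18.3 (15 spots) and 165 ± 11.48 (19 spots), 2.49-fold lower, and miR-6879-5p gave 279.9 ± 49.5 and 179 ± 27.3 (20 spots each), 2.46-fold lower. The last decrease, that of miR-6778-5p within SHMT1, an enzyme of one-carbon metabolism, was 2.04-fold, from 34.4 ± 14.8 (20 spots) to 26.4 ± 3.62 (18 spots). For miR-6821-5p, miR-6879-5p and miR-6778-5p the unscaled intensity was lower by less than 2-fold, and the scaling carried them past the threshold. Without scaling they were not called.

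The 8 increases started from oe-NC intensities of 5.32 to 17.5, close to the background. miR-6769b-5p gave 9.20 ± 2.45 (18 spots) on the oe-NC array and 161 ± 29.7 (20 spots) on the oe-HOTTIP array, 11.1-fold higher after scaling with a log2 difference of 3.48. miR-6775-5p gave 5.32 ± 2.47 (19 spots) and 54.9 ± 6.75 (20 spots), 6.58-fold higher (log2 difference 2.72). One of its probes lay at -0.08 on the oe-NC array, and the other probe alone gave a log2 difference of 2.27. In the same direction, miR-6867-5p went from 9.49 ± 3.07 (20 spots) to 95.1 ± 10.7 (19 spots), 6.39-fold higher.

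Next came miR-6740-5p and miR-6831-5p, which were about equally far apart between the arrays. miR-6740-5p gave 17.5 ± 4.59 (19 spots) and 112 ± 10.01 (19 spots), 4.07-fold higher, and miR-6831-5p gave 11.51 ± 2.71 (19 spots) and 72.7 ± 9.76 (20 spots), 4.02-fold higher. The other 3, miR-6785-5p within TMEM94, miR-6858-5p and miR-6726-5p within ACAP3, were 2.36-fold, 2.25-fold and 2.08-fold higher, with spreads of 0.49, 0.58 and 0.47 on the log2 scale. On the oe-NC array miR-6775-5p and miR-6858-5p, the latter at 5.91 ± 2.10 (17 spots), lay below the negative control mean plus 2 SD of 8.62, so their folds are measured against a signal that the background could give. miR-6893-5p, just short of the threshold at 1.96-fold, had about the same difference as miR-6726-5p. With background correction by normexp and an offset of 50, miR-6785-5p, miR-6858-5p and miR-6726-5p turned to -0.01, -0.28 and -0.03. The median log2 difference of the members detected on both arrays also turned negative, to -0.27. The offset was added to the spot signals before the scaling, and the cause of these turns was not tested.

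**Figure D2:**
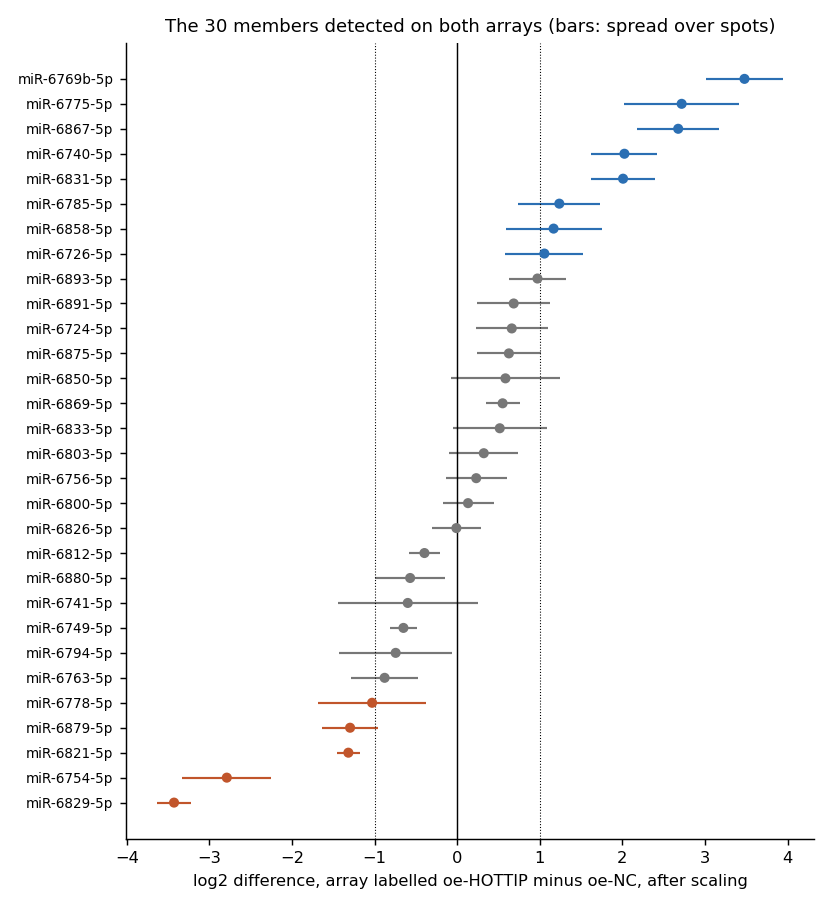
Scaled log2 difference (x axis, oe-HOTTIP array minus oe-NC array) of the 30 members detected on both arrays (y axis), with bars for the spread over spots and dotted lines at 2-fold. The 8 increases are blue, the 5 decreases orange, and the values run from -3.43 for miR-6829-5p to 3.48 for miR-6769b-5p.

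Among bright members within 2-fold, miR-6749-5p within ATG2A, a lipid transfer protein of autophagy, gave 71.9 ± 4.54 (18 spots) and 71.9 ± 6.93 (19 spots), a scaled log2 difference of -0.65. miR-6869-5p within FKBP1A, the immunophilin that binds FK506, gave 52.4 ± 5.05 and 120 ± 12.5 (20 spots each), a scaled log2 difference of 0.55. miR-6812-5p within PIGT, a subunit of the GPI transamidase, gave 77.5 ± 8.56 (19 spots) and 92.4 ± 6.72 (17 spots), with a log2 difference of -0.40. Its 2 probes disagreed, at 2.13 and -0.70, so that no direction can be given for it. Of 29 members with 2 probes measured on both arrays, the probes had 1 sign for 27, with a median gap of 0.22. The other pair of opposite sign, that of miR-6826-5p, lay at -0.07 and 0.06. Probes of 1 sign could still differ widely. The widest gap, 3.22, was that of miR-6833-5p, whose probes gave 0.08 and 3.30.

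The surplus of higher members came mainly from members detected on 1 array only. For these a lower bound was set, the signal of the detecting array against whichever was higher on the other array, its lowest detected signal or the member's own signal. By this bound 21 (91.3%) of the 23 members detected only on the oe-HOTTIP array were at least 2-fold higher, against 83.7% of all 129 such miRNAs, and 3 of the 5 detected only on the oe-NC array were at least 2-fold lower, against 89.6% of 67. The lowest detected signals, 0.976 on the oe-NC array and 2.43 on the oe-HOTTIP array, lay under the negative control means. A higher floor was therefore also used, the lowest signal whose neighbourhood of 51 ranked miRNAs was detected to 50% or more, which was 5.32 on the oe-NC array and 6.44 on the oe-HOTTIP array. With it, 6 (26.1%) of the 23 and 3 of the 5 kept their calls, against 30.2% of the 129 and 49.3% of the 67. Detection on the oe-HOTTIP array alone was found for 23 of the 176 members and for 129 of all 2549 miRNAs.

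miR-6809-5p had the highest bound against the lowest detected signal, and miR-6883-5p against the higher floor. miR-6809-5p gave -2.10 ± 1.62 (19 spots) on the oe-NC array and 25.4 ± 4.78 (20 spots) on the oe-HOTTIP array, at least 16.6-fold higher, or at least 3.05-fold with the higher floor. It lies within TNS1, which encodes tensin, a protein of focal adhesions. miR-6739-5p within the importin gene IPO9 gave -0.86 ± 2.26 (20 spots) and 19.0 ± 3.65 (19 spots), at least 12.4-fold higher or 2.27-fold with the higher floor. For miR-6765-5p the signals were 0.238 ± 1.56 (20 spots) and 17.4 ± 1.90 (18 spots), at least 11.4-fold or 2.09-fold. miR-6849-5p and miR-6883-5p were at least 9.41-fold and 9.28-fold higher, and 2.70-fold and 3.08-fold with the higher floor. These 5 and miR-6728-5p, at least 2.16-fold, were the 6 that kept their calls.

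The 17 others detected only on the oe-HOTTIP array included miR-6787-5p, which the study placed in a predicted network. The study then tested a mimic of it in a dual-luciferase reporter assay and reported that the expected trend was absent. miR-6787-5p lies at chr17:82236673-82236694 on the plus strand within SLC16A3, a lactate transporter. It gave -0.661 ± 2.16 (19 spots) on the oe-NC array and 7.51 ± 2.06 (18 spots) on the oe-HOTTIP array. The latter signal lay below the negative control mean plus 2 SD of 7.87 on that array, and with the higher floor no fold could be given, so it counts as higher only against the lowest detected signal. Of the 23, 16 lay above that limit, and 13 had a signal below 0 on the oe-NC array.

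In the other direction, miR-6776-5p within CLUH gave 12.6 ± 3.30 (20 spots) on the oe-NC array and 1.58 ± 1.73 (18 spots) on the oe-HOTTIP array, at least 8.12-fold lower. miR-6721-5p within AGPAT1, an acyltransferase of phospholipid synthesis, gave 14.1 ± 3.92 and 4.74 ± 2.14 (20 spots each), at least 4.67-fold lower. miR-6795-5p gave 8.91 ± 3.73 (20 spots) and 3.41 ± 2.25 (19 spots), at least 4.11-fold lower. With the higher floor these 3 were at least 3.06-fold, 3.44-fold and 2.17-fold lower. miR-6802-5p within PPP6R1 and miR-6892-5p, at 2.97 ± 2.38 and 2.48 ± 3.21 (20 spots each) on the oe-NC array, did not reach 2-fold.

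**Figure D3:**
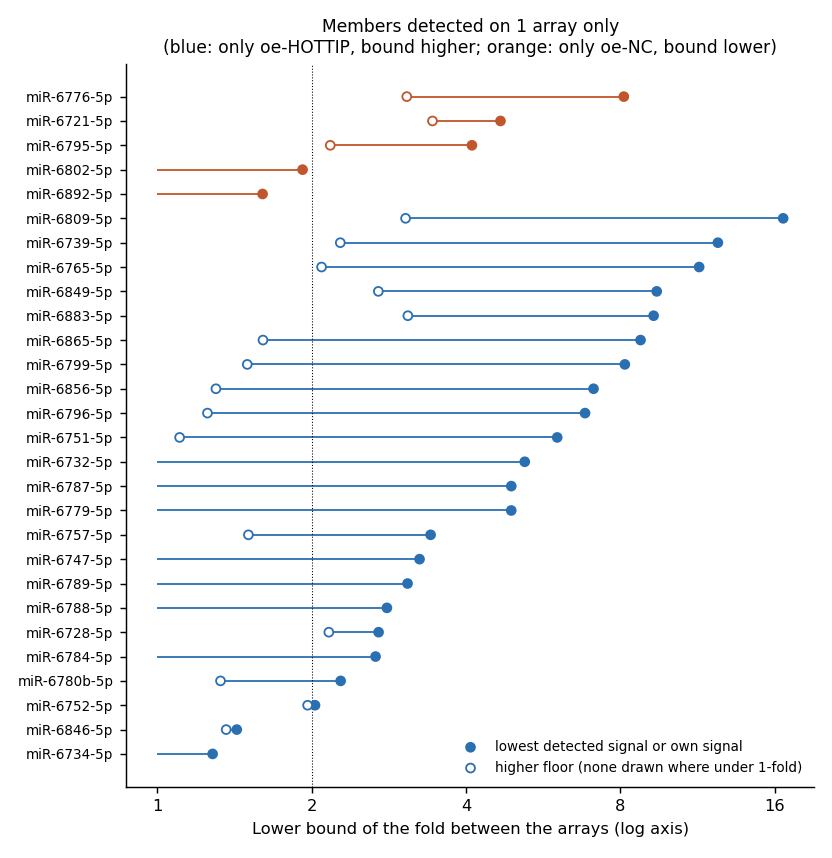
Lower bound of the fold (x axis, log scale) for the 28 members detected on 1 array only (y axis), with the lowest detected or own signal as floor (filled) and with the higher floor (open, drawn only at 1-fold or more; the line runs to 1 where it is missing). The dotted line marks 2-fold, and 6 blue and 3 orange open points lie to its right.

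Put together, 29 of the 176 members (16.5%) were at least 2-fold higher on the oe-HOTTIP array and 8 (4.55%) at least 2-fold lower. Over all 2549 miRNAs the shares were 6.08% higher and 4.51% lower. Much of that gap lay in detection. Of the 58 members detected on 1 or both arrays, 29 were higher and 8 (13.8%) lower, against 33.9% and 25.2% of all 457 detected miRNAs. With the higher floor 14 (24.1%) were higher and 8 (13.8%) lower, against 18.8% and 19.3%. The surplus over all detected miRNAs was smaller with that floor, and of the 25 members above the negative control limit on both arrays 6 were higher and 5 lower, against 31 (15.0%) and 49 (23.7%) of all 207 such miRNAs.

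The 3p arms of the same number range went the other way. Of 173 3p arms, 18 were detected on the oe-NC array and 4 on the oe-HOTTIP array. Of the 19 detected, 18 (94.7%) were at least 2-fold lower and 1 was higher, and with the higher floor 14 were lower and 1 higher. Their signals were dim, and where detection required over 50% of the spots to be well above background, 2 were lower and 1 higher. 5p arms of miR-1225 to miR-1238, which include the first mirtrons described in mammals, were higher in 5 and lower in 1 of 6 detected. Other miRNAs numbered 1000 or higher were higher in 87 and lower in 58 of 210 detected, and miRNAs numbered under 1000 in 33 and 28 of 154.

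**Figure D4:**
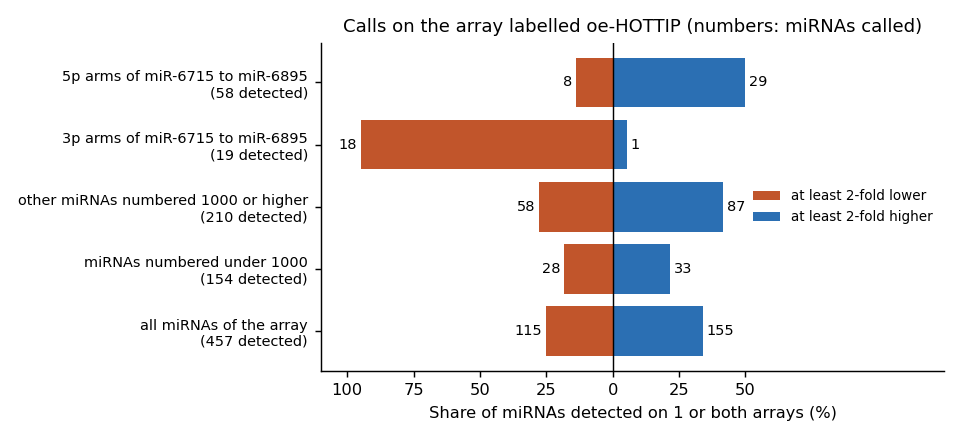
Share of the detected miRNAs (x axis, %) at least 2-fold higher (blue, right) or lower (orange, left) on the oe-HOTTIP array, for 5 sets of miRNAs (y axis), with the number called beside each bar; bounds are counted with the lowest detected or own signal as floor. The 5p bar (29 of 58) reaches further to the right than the other bars drawn and the 3p bar 94.7% to the left.

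For 170 hairpins the array held both arms. Only the 5p arm was detected in 48, only the 3p arm in 11, and both in 8. No hairpin had both arms detected on both arrays, so no ratio between the arms could be compared between the groups. In 28 hairpins the 5p arm was called higher and the 3p arm was detected on neither array. In 16 the 3p arm was called lower with no call of the 5p arm, which in 11 of them was detected on neither array. An undetected arm has no measured difference, so these counts do not show arms that moved apart. The hairpin of miR-6752, shown above, had both calls. Its 5p arm gave 5.14 ± 2.11 (20 spots) on the oe-NC array and 16.4 ± 1.74 (18 spots) on the oe-HOTTIP array, at least 2.03-fold higher, and its 3p arm gave 12.9 ± 2.35 (20 spots) and 3.12 ± 1.54 (19 spots), at least 6.47-fold lower. With the higher floor the 5p bound was 1.96-fold, just under the threshold.

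Among the 8 hairpins with both arms detected, only that of miR-6752 had calls in opposite directions. Both arms of miR-6795 were lower on the oe-HOTTIP array, the 3p arm at 12.1 ± 2.68 and 5.96 ± 2.11 (20 spots each), at least 3.19-fold. For miR-6893 the 3p arm was higher, at 4.71 ± 2.53 (16 spots) on the oe-NC array and 44.4 ± 4.04 (19 spots) on the oe-HOTTIP array, at least 6.01-fold, and the 5p arm gave 16.2 ± 3.24 and 49.8 ± 6.30 (20 spots each). It was the only 3p arm that was called higher.

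The arms differ in base composition. The 5p members had a median of 50% guanine and 14.3% cytosine, the 3p arms 14.6% and 45.5%, and all 2248 miRNAs of the array with a sequence 27.3% and 22.2%. The letters GGGG were present in 71 (47.3%) of the 150 members against 269 of all 2248 miRNAs, and GGAG in 68 (45.3%) against 15.9%. GGCU was found in 22.0% against 12.5%. CCCU, in contrast, was found in 6.67% of the members and 49.4% of the 3p arms, against 270 of the 2248. These letters were searched as written on the mature strand, where GGGG and GGAG may overlap. They are a description of the sequences and mark no binding site. Detected members held GGGG more often than undetected ones, 63.0% against 40.4%. The same held outside the 5p and 3p arms of this range. There GGGG was present in 24.5% of the miRNAs detected on both arrays and in 7.6% of the undetected. For those detected only on the oe-HOTTIP or only on the oe-NC array it was 23.3% and 11.6%.

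Composition also moved with detection over the rest of the array. Outside the 5p and 3p arms of this range, the 43 miRNAs detected only on the oe-NC array had a median of 36.4% cytosine and 17.4% guanine, and the 90 detected only on the oe-HOTTIP array had 16.7% and 40.9%. Among the 5p members the medians were close. The 4 with a sequence that were detected only on the oe-NC array had a median of 51.3% guanine, and the 19 detected only on the oe-HOTTIP array had 52.2%. Across the 23 members with a sequence detected on both arrays, Spearman's rho between guanine share and log2 difference was 0.02 and that for cytosine share -0.37, and across all 218 such miRNAs they were 0.16 and -0.11. For the unscaled difference of the undetected, rho with guanine share was 0.24 over 104 members and 0.30 over all 1861 miRNAs. These points share 2 libraries. The part of composition in the calls was not tested.

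**Figure D5:**
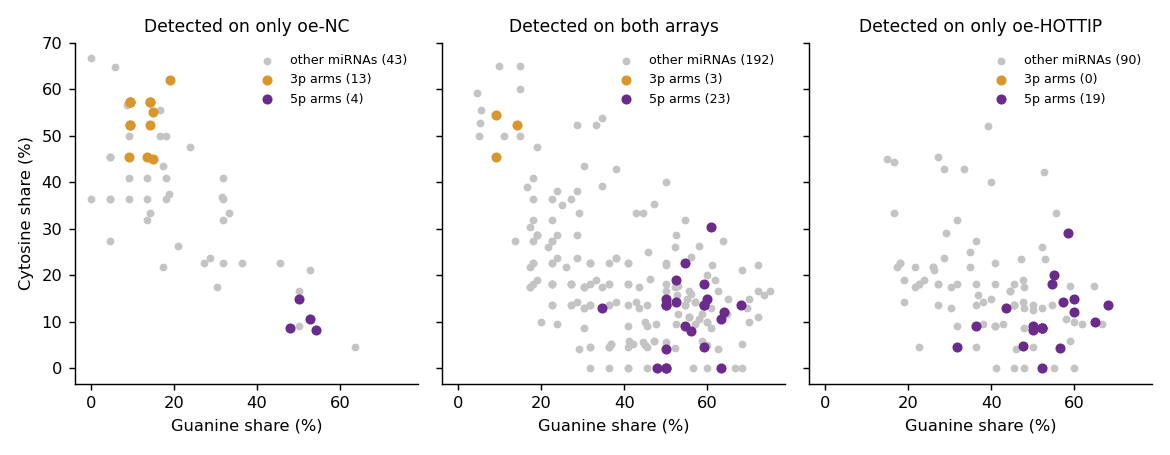
Guanine share (x axis, %) and cytosine share (y axis, %) of each detected miRNA with a RefSeq sequence, in 1 panel for each class of detection. The 3p arms (orange) sit at high cytosine in the left and middle panels, and the 5p members (purple) sit at high guanine in every panel.

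The members detected on neither array also had mostly higher signals on the oe-HOTTIP array. Among these 118, the unscaled signal was higher on the oe-HOTTIP array for 90 (76.3%), with medians of -1.33 on the oe-NC array and -0.805 on the oe-HOTTIP array. Of the 154 undetected 3p arms, 53 (34.4%) were higher, with medians of -0.673 and -0.909. Of the 1820 other undetected miRNAs, 1003 (55.1%) were higher. Signals of this size lie under the negative control mean, so they are no measure of a miRNA's level, and the part of a background that differs between the arrays in the dim calls was not tested.

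Few members shared a seed. The 150 sequences held 139 different seeds, of which 10 were shared by 21 members. The letters GGG stood in the seeds of 97 members. In no group of shared seeds were all members detected except that of miR-6751-5p and miR-6803-5p, which are shown for that reason.
miR-6751-5p: uUGGGGGUgagguuggugucugg
miR-6803-5p: cUGGGGGUggggggcugggcgu

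miR-6751-5p, within SYVN1, gave -1.05 ± 1.61 (17 spots) on the oe-NC array and 9.22 ± 1.85 (16 spots) on the oe-HOTTIP array, at least 6.02-fold higher or 1.11-fold with the higher floor. miR-6803-5p gave 30.0 ± 5.90 (17 spots) and 58.8 ± 12.6 (20 spots), a scaled log2 difference of 0.32, which is within its spread of 0.42. The pair with the seed GGGGGGA, miR-6795-5p and the undetected miR-6887-5p, held the called decrease described above.

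The authors' normalized table was set against the scanner values of the members. Its column named oe-HOTTIP had a Spearman's rho of 1.00 with the oe-NC array (34 members) and 0.54 with the oe-HOTTIP array (30 members). Its column named oe-NC had 1.00 with the oe-HOTTIP array (53 members) and 0.54 with the oe-NC array (30 members). By the table as its columns are named, 9 members were at least 2-fold higher and 20 lower, and with its columns exchanged 20 were higher and 9 lower. A member at the table's floor in 1 column was called by its log2 value in the other column. This floor differs from those of the scanner bounds, so these counts are not like for like with the scanner counts. The direction that the study described for miR-6787-5p, lower in oe-HOTTIP exosomes, is that of the table as named. Which of the namings is right cannot be told from these files. In the table as named, miR-6829-5p stood at 2.70 and miR-6769b-5p at -3.65, against -3.43 and 3.48 from the scanner values.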

How the data were processed

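Exosomal RNA of FaDu cells was measured on 2 arrays, 1 per group, both on 1 slide and scanned together. The authors deposited the scanner output of Agilent Feature Extraction (11.5.1.1 in the file headers, 10.10 in the submitters' processing notes), in which spots have a background-subtracted intensity. A table of log2 values, normalized by the authors, was deposited as well, and for it the methods name GeneSpring and the 90th percentile. The members and lists were chosen with earlier results of these data known.

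Control spots and outlier spots (1630 and 1609 of 50980) were left out, no spot was saturated, and spots were averaged per probe and probes per miRNA. Intensities were scaled to the 90th percentile of the 261 miRNAs that both arrays detected, log2 was taken, and a difference of 2-fold was called. A miRNA detected on 1 array only got a lower bound, if that exceeded 1. The spread on the log2 scale is the root of the summed squares of both relative SDs. Members had 2 or 3 probes each. No test was run, since there was 1 array per group, and precision is limited by this number of arrays. The script was tested on simulated data. The simulated arrays had the same detection flags and only brighter miRNAs were scored, so neither the lower bounds nor the dim calls were covered.

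The named members were the increases and decreases of at least 2-fold among those detected on both arrays (up to 10 each), the 5 highest bounds in each direction, the 5 highest intensities on each array, miR-6787-5p, and 3p arms of hairpins with both arms detected on both arrays, of which there were none. Other members, such as miR-6728-5p, miR-6751-5p, miR-6752, miR-6803-5p, miR-6826-5p, miR-6833-5p and miR-6893, were named after their values were seen. Sequences, positions and host genes came from RefSeq tables of GRCh38.p14. Alternatives were other scalings (90th percentile over all miRNAs, 75th percentile, median, quantile, none, labelling spike-ins), the summed intensity per miRNA, the brightest probe, outlier spots kept, normexp with an offset of 50 or none, a stricter detection rule, filters on dim miRNAs, a higher floor, and the normalized table. normexp used median spot signals. Work was done in R 4.3.3 with limma 3.58.1 and in Python 3.11.15 with pandas 2.3.3, numpy 2.4.6 and matplotlib 3.10.9.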

Additional observations from a re-analysis of the deposited data

How the results depend on the processing

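Against 29 higher and 8 lower members, the brightest probe gave 17 and 7, normexp with an offset of 50 gave 1 and 4, normexp with no offset 9 and 7, detection by over 50% of the spots 18 and 2, signals above the negative control limit on both arrays 6 and 5, the higher floor 14 and 8, no scaling 38 and 5, and the table as its columns are named 9 and 20. The other scalings gave 26 to 29 higher and 8 to 10 lower members. Of the 29 and 8, the table with its columns exchanged kept 19 and 8. The median log2 difference, 0.42, was 1.07 without scaling, -0.27 with the offset of 50 and -0.14 in the table as named. Detection by over 50% of the spots left 23 members detected in oe-NC and 35 in oe-HOTTIP, where the table as named gave 53 and 34. The cause of these differences was not tested. The 3p arms stayed at 18 lower and 1 higher under all scalings but the absence of one, which gave 11 and 1, and at 0 and 0 with the offset of 50.

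With the offset of 50, miR-6785-5p, miR-6858-5p and miR-6726-5p turned to -0.01, -0.28 and -0.03. In the table as named, log2 differences or bounds of opposite sign were -3.65 for miR-6769b-5p, -2.37 for miR-6775-5p, -2.40 for miR-6867-5p, -1.79 for miR-6740-5p, -1.77 for miR-6831-5p, -1.06 for miR-6785-5p, -0.83 for miR-6858-5p, -0.86 for miR-6726-5p, 2.70 for miR-6829-5p, 3.69 for miR-6754-5p, 1.44 for miR-6821-5p, 1.31 for miR-6879-5p, 1.27 for miR-6778-5p, -2.48 for miR-6809-5p, -2.05 for miR-6739-5p, -1.56 for miR-6765-5p, -2.28 for miR-6849-5p, -2.49 for miR-6883-5p, 2.21 for miR-6776-5p, 2.36 for miR-6721-5p, 1.77 for miR-6795-5p and -0.11 for miR-6787-5p. That list covers the named members with a 2-fold call. Its bounds are the log2 value in the column above the table's floor, and their floor differs from those of the scanner bounds. Named members without a call also had the opposite sign: miR-6749-5p (0.90), miR-6869-5p (-0.34), miR-6812-5p (0.54) and miR-6802-5p (0.77). No paired analysis was possible because there was 1 array per group, which also left no replicate to omit. Signals near the negative controls limit the dim members most.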
